A study of Mus musculus with 9 samples.

Results

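The genes described here are 9 genes that neurons switch on when they fire: the Egr transcription factors Egr1, Egr2, Egr3 and Egr4, the Nr4a nuclear receptors Nr4a1, Nr4a2 and Nr4a3, the synaptic protein Arc and the transcription factor Npas4. They were found through the RefSeq accession of every non-control probe, which gave 10 probes for the 9 genes among 30837 genes tested. The arrays measured brain RNA of adult male C57BL/6 mice aged 50 to 53 days, taken 24 h after reperfusion, with 3 mice in each of 3 groups. Sham mice had sham surgery, and the labels state no injection for them. In MCAO mice the middle cerebral artery was occluded for 90 min, and 3 h into reperfusion 1 µl of phosphate-buffered saline was injected into a lateral ventricle. In the VEGF group, mice occluded in the same way were instead given 1 µl of rhVEGF-A165, a human growth factor of blood vessels, at 10 µg/ml. The labels do not state which part of the brain was used. The series title names the effect of VEGF on expression after focal ischaemia as its question.

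Immediate early genes are transcribed within minutes of synaptic activity, without new protein synthesis, and their RNA is short-lived. Calcium entry through glutamate receptors and calcium channels activates kinases, which act on CREB at cAMP response elements and on serum response factor at CArG boxes. The Egr proteins are zinc finger factors that bind GC-rich sites, the Nr4a proteins are orphan nuclear receptors that bind the NBRE, Npas4 is a basic helix-loop-helix factor largely restricted to neurons, and Arc promotes the removal of AMPA receptors from synapses. Most of these genes are also induced in other cells by growth factors and stress.

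Levels are log2 of the processed intensity minus the 75th percentile of the same array, so a level of 0 is that percentile. Levels of different genes come from different probes and were not compared. Each difference is given with the standard error of limma's fit to all 9 arrays, and adjusted p-values are limma's moderated two-sided test with Benjamini-Hochberg adjustment over all 30837 genes. Between 73.0% and 81.8% of spots were well above background. The labels state that the 3 experiments used different mice, so each array is a different animal.

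MCAO array 1 and VEGF array 1 stood apart from the other ischaemic arrays. The median of 15 neuron markers, each relative to its own sham mean, was -2.43 and -2.39 on these arrays and -0.62 to -0.27 on the other 4. The median of 9 endothelium markers was 1.80 and 2.63 on them and 0.42 to 0.67 on the other 4. The 75th percentile of the signal was 923 and 848 there, 1540 to 2070 on the 4 remaining ischaemic arrays and 1420 to 1530 in sham. The sham arrays shared 1 slide and the ischaemic arrays a different one, so slide, injection and ischaemia cannot be told apart. MCAO array 1 alone was scanned on a second day. The differences of the 9 genes from sham, and the counts of the gene lists that passed, are therefore given with and without this pair of arrays.

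Egr4 and Nr4a2 fell after occlusion in both ischaemic groups, while the other 7 genes did not pass the test. Against sham, Egr4 was 6.29-fold lower in MCAO and 5.50-fold lower in VEGF, and Nr4a2 was 5.42-fold and 5.93-fold lower. These were 2 of 9 genes called in each comparison, both lower. Over all genes 2.81% were called in MCAO against sham, 0.535% lower and 2.28% higher. In VEGF against sham 2.43% were called, 0.357% lower and 2.07% higher. In bulk RNA, fewer cells of a type and less RNA per cell cannot be told apart.

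**Figure D1:**
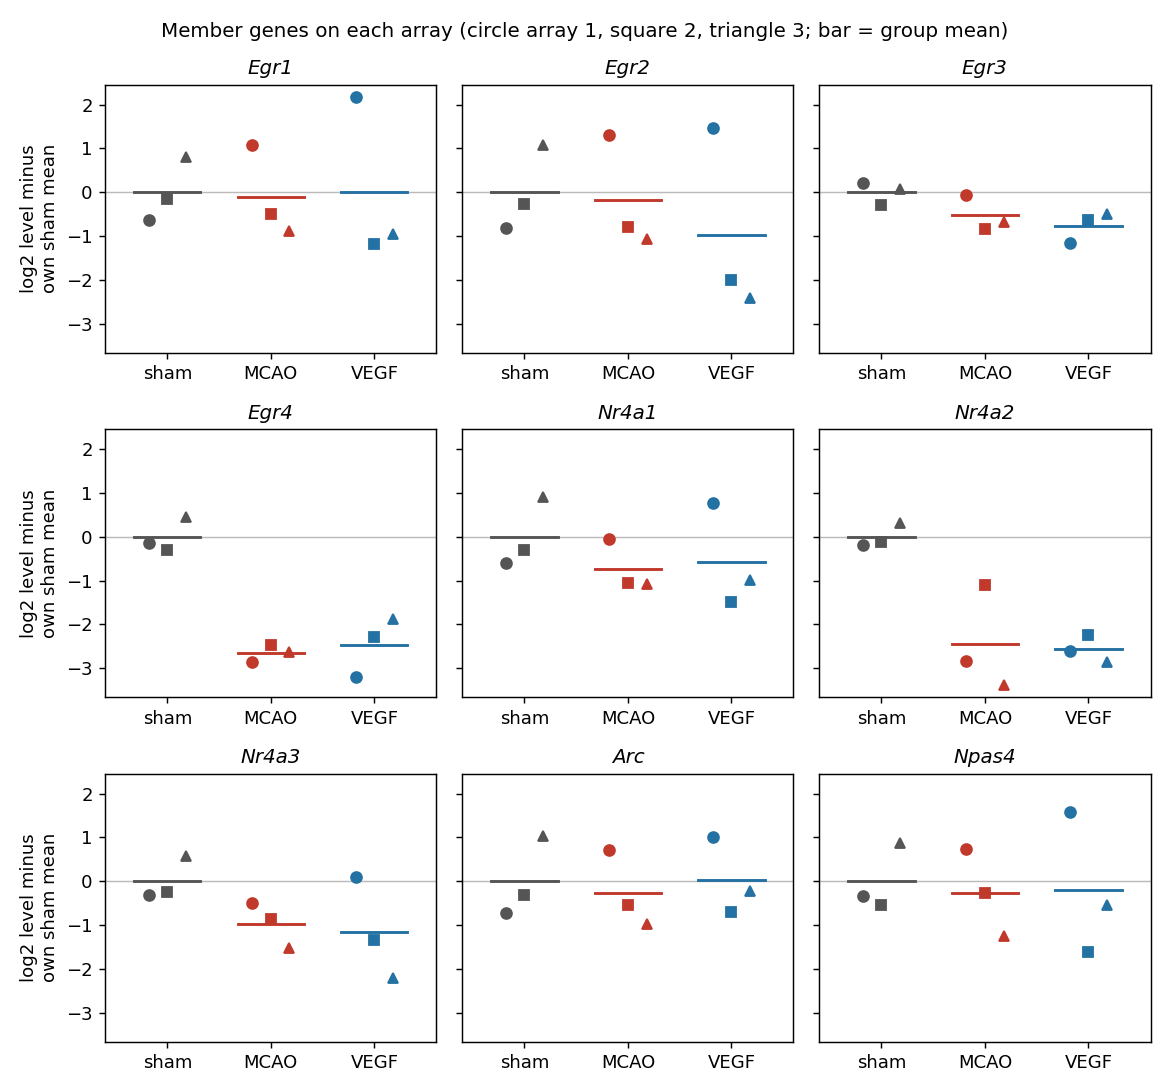
Log2 level of each of the 9 genes on each of the 9 arrays, minus the gene's own mean over the 3 sham arrays (y axis), by group (x axis); circles, squares and triangles are arrays 1, 2 and 3, and bars are group means. Egr4 and Nr4a2 lie below every sham array on all 6 ischaemic arrays, as do 12.5% of all genes. In Egr1, Egr2, Npas4 and Arc array 1 of both ischaemic groups lies above the other arrays of its group.

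Egr4 is an Egr family member whose RNA in the adult brain is largely neuronal. Per mouse, the levels were 3.39, 3.24 and 3.99 in sham, 0.67, 1.08 and 0.91 in MCAO and 0.35, 1.24 and 1.65 in VEGF. The ischaemic arrays were all low, and all 6 lay below every sham array, as in 12.5% of all genes. The difference was -2.65 ± 0.35 in MCAO (adjusted p = 0.00807) and -2.46 ± 0.35 in VEGF (adjusted p = 0.0115). Without MCAO array 1 and VEGF array 1 it was -2.55 ± 0.26 (adjusted p = 0.0027) and -2.09 ± 0.26 (adjusted p = 0.00609). The call in VEGF was lost when sham array 1 (adjusted p = 0.066) or sham array 3 (adjusted p = 0.0626) was left out; the call in MCAO was kept under all 22 alternatives. Within the first scan day, without MCAO array 1 alone, it was -2.55 (adjusted p = 0.0241) in MCAO and -2.46 (adjusted p = 0.0124) in VEGF.

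Nr4a2 (Nurr1) is a nuclear receptor needed for midbrain dopamine neurons and is also expressed in cortex and hippocampus. In sham the level was 3.67, 3.76 and 4.17, in MCAO 1.03, 2.77 and 0.48 and in VEGF 1.26, 1.62 and 1.01. All 6 ischaemic arrays were below all sham arrays, as in 12.5% of all genes. MCAO array 2 was the nearest to the sham arrays. The difference was -2.44 ± 0.52 in MCAO (adjusted p = 0.0498) and -2.57 ± 0.52 in VEGF (adjusted p = 0.045). Both lie close to the threshold, and the call was lost under 13 of 22 alternatives in MCAO and 8 of 22 in VEGF, with no change of direction. In MCAO it was lost without any 1 sham array (adjusted p = 0.141 to 0.177), MCAO array 1 (0.0887), MCAO array 3 (0.11), VEGF array 2 (0.0682) or VEGF array 3 (0.0666). In VEGF it was lost without any 1 sham or VEGF array (adjusted p = 0.0686 to 0.184). The size in MCAO rested in part on MCAO array 2: without it Nr4a2 was -3.11, or 8.63-fold lower. Within the first scan day it was -2.24 (adjusted p = 0.0887) and -2.57 (adjusted p = 0.0327). Leaving out MCAO array 1 and VEGF array 1 gave -2.24 ± 0.63 (adjusted p = 0.0498) and -2.55 ± 0.63 (adjusted p = 0.0388).

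Nr4a2 is the only one of the 9 genes with more than 1 probe. Its dimmer probe read 1.24, 1.67 and 2.19 in sham, -1.58, 0.65 and -1.61 in MCAO and -1.33, -0.56 and -1.17 in VEGF. It gave the same order of groups as the brighter probe. Tested over all probes, the dimmer probe differed by -2.55 ± 0.59 in MCAO (adjusted p = 0.0676) and -2.72 ± 0.59 in VEGF (adjusted p = 0.0596), and the brighter one had adjusted p = 0.0544 and 0.0488.

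The stretches upstream of the start sites of these genes are shown because the list holds genes known as CREB targets. Promoters of Egr1 and of a whole chromosome were left out before the search. The rest of RefSeq's GRCm38.p6 table gave a promoter entry for 6 of the 9 genes, Egr2, Egr4, Nr4a1, Nr4a2, Nr4a3 and Npas4. The 250 bases before the start are printed 5′ to 3′ for both genes that fell and for Nr4a1 and Npas4, which did not pass; capitals mark TGACG, the core of the cAMP response element, or its reverse complement.
Egr4, chr6:85513590-85513839, minus strand: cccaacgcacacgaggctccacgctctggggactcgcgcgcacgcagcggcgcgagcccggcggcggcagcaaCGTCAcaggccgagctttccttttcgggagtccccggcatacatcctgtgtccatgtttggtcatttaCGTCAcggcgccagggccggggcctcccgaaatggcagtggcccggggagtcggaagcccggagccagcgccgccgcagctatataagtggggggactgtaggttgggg
Nr4a2, chr2:57124004-57124253, minus strand: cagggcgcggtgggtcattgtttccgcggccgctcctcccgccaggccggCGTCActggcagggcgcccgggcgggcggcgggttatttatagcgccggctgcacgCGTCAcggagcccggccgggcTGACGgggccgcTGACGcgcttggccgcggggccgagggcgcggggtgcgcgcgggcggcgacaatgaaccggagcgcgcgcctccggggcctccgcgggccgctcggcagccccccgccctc
Nr4a1, chr15:101266596-101266845, plus strand: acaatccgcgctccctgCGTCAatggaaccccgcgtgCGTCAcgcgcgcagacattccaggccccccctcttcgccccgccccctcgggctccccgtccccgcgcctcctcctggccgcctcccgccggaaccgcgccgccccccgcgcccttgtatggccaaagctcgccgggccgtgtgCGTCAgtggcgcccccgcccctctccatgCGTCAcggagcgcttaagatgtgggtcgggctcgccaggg
Npas4, chr19:4989972-4990221, minus strand: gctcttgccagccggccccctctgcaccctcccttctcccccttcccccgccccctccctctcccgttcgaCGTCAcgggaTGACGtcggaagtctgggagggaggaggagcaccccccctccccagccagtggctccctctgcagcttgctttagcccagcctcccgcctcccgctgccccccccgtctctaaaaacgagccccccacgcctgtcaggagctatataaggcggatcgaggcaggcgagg

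The core TGACG, searched on both strands over 250 bases before to 50 bases after the start, matched in at least 1 promoter of all 6 genes with an entry. The genes have 10 entries, 5 of them for Egr2. The core matched in 8 of the 10, with 3 of 5 for Egr2, beside 20.8% of 32851 promoters. The 3 Egr2 entries with the core overlap and hold the same sites. Those 32851 promoters, called all promoters here, leave out Egr1 and the same chromosome. The core matched 4 times each in Nr4a1, Nr4a2 and Nr4a3, and 2 times each in Egr4 and Npas4. The full element TGACGTCA, which contains the core, was in none of the 6 and in 1.79% of all promoters. The CArG box matched in Egr2 alone of the 6 and in 1.63% of all promoters. The Egr site GCGTGGGCG (0.612% of all promoters) and the NBRE AAAGGTCA (1.51%) were in none of the 6. Genes that fell and genes that did not pass both hold the core.

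Egr1 (Zif268), a factor used widely as a marker of recent neuronal activity, did not pass. Sham mice read 3.20, 3.69 and 4.65, MCAO mice 4.92, 3.35 and 2.97 and VEGF mice 6.02, 2.66 and 2.88. Array 1 was the highest of both ischaemic groups and above every sham array, and 3 of the other ischaemic arrays were below every sham array. The difference was -0.10 ± 0.91 in MCAO (adjusted p = 0.958) and 0.01 ± 0.91 in VEGF (adjusted p = 0.997). The 95% interval in MCAO ran from -2.18 to 1.98, so differences of several fold either way were not detectable. Without MCAO array 1 and VEGF array 1 the differences were -0.68 ± 0.41 (adjusted p = 0.264) and -1.07 ± 0.41 (adjusted p = 0.112).

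Egr2 (Krox20), known for myelination in peripheral nerve and also induced by activity, had the widest spread within groups of the 9 genes. Per mouse, the levels were -0.46, 0.09 and 1.44 in sham, 1.66, -0.43 and -0.70 in MCAO and 1.82, -1.64 and -2.05 in VEGF. The 2 highest ischaemic values, both on array 1, exceeded every sham array. The difference was -0.18 ± 1.07 in MCAO (adjusted p = 0.932) and -0.98 ± 1.07 in VEGF (adjusted p = 0.572). Without the pair, the VEGF difference was -2.20 ± 0.53 (adjusted p = 0.0354), which passed, and the MCAO difference was -0.93 ± 0.53 (adjusted p = 0.243).

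Egr3, a factor needed for muscle spindle development and induced by activity in the brain, was dim and was well above background on 2 of 3 VEGF arrays. In sham the level was -4.45, -4.96 and -4.58, in MCAO -4.73, -5.50 and -5.33 and in VEGF -5.82, -5.30 and -5.16. The VEGF arrays were all below the sham arrays, and MCAO array 1 lay within the sham range. The difference was -0.53 ± 0.28 in MCAO (adjusted p = 0.306) and -0.77 ± 0.28 in VEGF (adjusted p = 0.164). Without the pair, MCAO passed at -0.75 ± 0.18 (adjusted p = 0.0315) and VEGF did not, at -0.57 ± 0.18 (adjusted p = 0.0724). Before scaling, the Egr3 signal was 57.1, 43.2 and 56.1 in sham. It was 39.2 and 42.4 on MCAO arrays 2 and 3 and 39.3 and 36.9 on VEGF arrays 2 and 3. The percentile used for scaling was 1420 to 1530 in sham. It was 2070 and 1980 on these MCAO arrays and 1830 and 1540 on these VEGF arrays. The part of scaling in these differences was not tested. Over the 22 alternatives the difference ran from -0.75 to -0.14 in MCAO and from -0.91 to -0.016 in VEGF.

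Nr4a1 (Nur77), a nuclear receptor induced in neurons and in immune cells, did not pass. Sham mice read 3.80, 4.08 and 5.28, MCAO mice 4.35, 3.32 and 3.30 and VEGF mice 5.15, 2.90 and 3.40. Array 1 of both ischaemic groups lay within the sham range. The other 4 ischaemic arrays lay below that range, as they did in 25.6% of all genes. The difference was -0.73 ± 0.63 in MCAO (adjusted p = 0.511) and -0.57 ± 0.63 in VEGF (adjusted p = 0.575). Without the pair it was -1.07 ± 0.44 (adjusted p = 0.123) and -1.24 ± 0.44 (adjusted p = 0.0946).

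Nr4a3 (Nor1), the third receptor of the family, was dim but well above background on all 9 arrays. Per mouse, the levels were -5.25, -5.19 and -4.36 in sham, -5.44, -5.80 and -6.47 in MCAO and -4.85, -6.27 and -7.14 in VEGF. MCAO did not overlap sham, whereas VEGF array 1 lay within the sham range. The difference was -0.97 ± 0.56 in MCAO (adjusted p = 0.340) and -1.15 ± 0.56 in VEGF (adjusted p = 0.247). Without the pair, VEGF passed at -1.77 ± 0.39 (adjusted p = 0.0296) and MCAO did not, at -1.20 ± 0.39 (adjusted p = 0.0734). Over the 22 alternatives the difference ran from -1.20 to -0.36 in MCAO and from -1.77 to -0.18 in VEGF.

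Arc, whose RNA travels into dendrites, did not pass. In sham the level was 3.33, 3.74 and 5.08, in MCAO 4.77, 3.51 and 3.08 and in VEGF 5.06, 3.34 and 3.83. The 3 groups overlapped. The difference was -0.27 ± 0.63 in MCAO (adjusted p = 0.824) and 0.03 ± 0.63 in VEGF (adjusted p = 0.982). Without the pair it was -0.76 ± 0.51 (adjusted p = 0.317) and -0.47 ± 0.51 (adjusted p = 0.546).

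Npas4 did not pass either. Sham mice read 1.71, 1.51 and 2.91, MCAO mice 2.78, 1.79 and 0.79 and VEGF mice 3.62, 0.42 and 1.49. VEGF array 1 held the highest value and VEGF array 2 the lowest. The difference was -0.26 ± 0.83 in MCAO (adjusted p = 0.872) and -0.20 ± 0.83 in VEGF (adjusted p = 0.892). Without the pair it was -0.76 ± 0.55 (adjusted p = 0.352) and -1.09 ± 0.55 (adjusted p = 0.207).

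**Figure D2:**
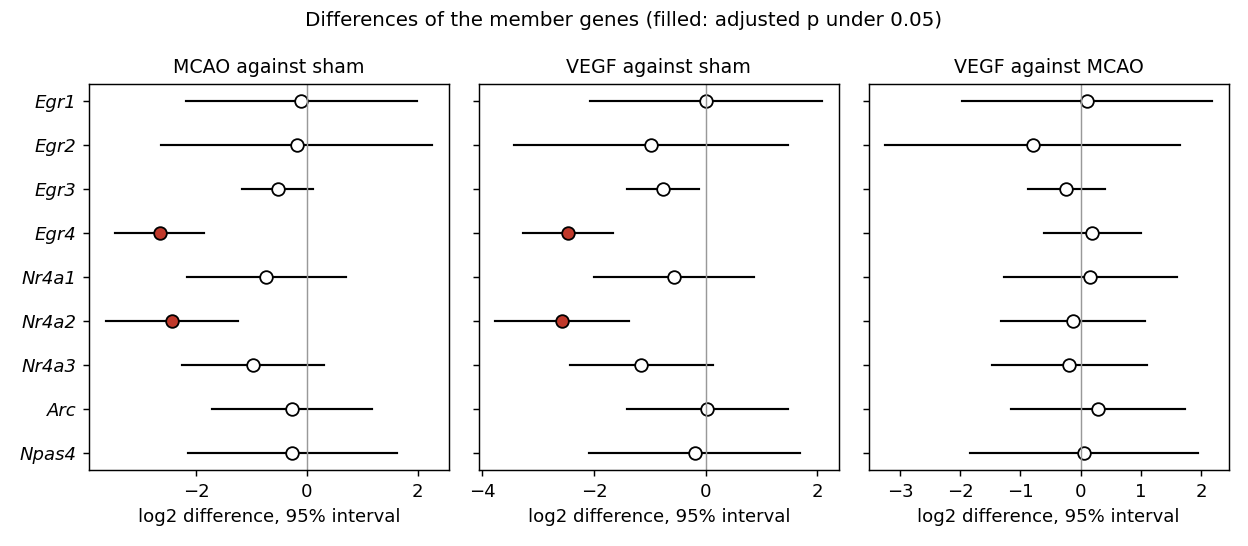
Log2 difference (x axis) of each of the 9 genes in the 3 comparisons, as points with 95% intervals from limma's fit to 9 arrays; filled points passed at an adjusted p under 0.05. Egr4 and Nr4a2 are filled in both comparisons with sham, and no gene is filled in VEGF against MCAO.

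As a group, 9 of 9 genes had a difference below 0 in MCAO and 7 of 9 in VEGF, with medians of -0.53 and -0.77 beside -0.04 and -0.12 over all genes. Both comparisons use the same sham arrays. The groups did not overlap, with MCAO below sham, in Egr4, Nr4a2 and Nr4a3, which is 3 of 9 genes beside 20.7% of all genes. In VEGF against sham the same held for Egr3, Egr4 and Nr4a2, beside 23.9% of all genes. Directions of Egr1, Egr2, Arc and Npas4 in MCAO, and of Egr1, Arc and Npas4 in VEGF, turned under at least 1 alternative, and those of the other genes against sham did not.

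VEGF against MCAO gave no call among the 9 genes. Their differences ran from -0.80 ± 1.07 in Egr2 to 0.29 ± 0.63 in Arc, each with an adjusted p of 1, and 0 of 9 had an unadjusted p under 0.05. Egr4 differed by 0.19 ± 0.35, with a 95% interval from -0.61 to 1.00, and Nr4a2 by -0.13 ± 0.52, with an interval from -1.33 to 1.06. Over all genes limma called 2, or 0.00649%, and 856, or 2.78%, had an unadjusted p under 0.05. The groups overlapped in all 9 genes, beside 5.80% of all genes without overlap. These intervals do not show that VEGF left the genes as they were. With limma's default array weights, whose estimate stopped before converging, Egr2, Nr4a2 and Npas4 were called here, and with weights estimated gene by gene none was.

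Within each group, most of the 9 genes were highest on the same array. Sham array 3 was the highest sham array for 8 of 9 genes (33.6% of all genes), MCAO array 1 the highest MCAO array for 7 of 9 (57.1%) and VEGF array 1 the highest VEGF array for 6 of 9 (46.6%). Egr1, Egr2, Nr4a1, Nr4a3, Arc and Npas4 were highest on all 3 of these arrays, a pattern that 11.7% of all genes had. These are descriptions, since each array is 1 mouse.

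Between MCAO array 1 and VEGF array 1 and the other 4 ischaemic arrays, these 6 genes were higher on both arrays of the pair than on all 4 others, as were 33.3% of all genes. The mean difference was 2.95 in Egr2, 2.50 in Egr1 and 2.08 in Npas4, and 1.52, 1.48 and 1.28 in Nr4a1, Arc and Nr4a3. Egr4 went the other way, 0.71 lower on the pair and below all 4 others, as were 22.2% of all genes. Neuron markers were lowest on this pair and endothelium and neutrophil markers highest; the part of cell makeup in these levels was not tested. MCAO array 1, VEGF array 1, VEGF array 2 and sham array 1 came from mice aged 50 days and the rest from mice aged 52 or 53 days; the part of age in this pattern was not tested.

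**Figure D3:**
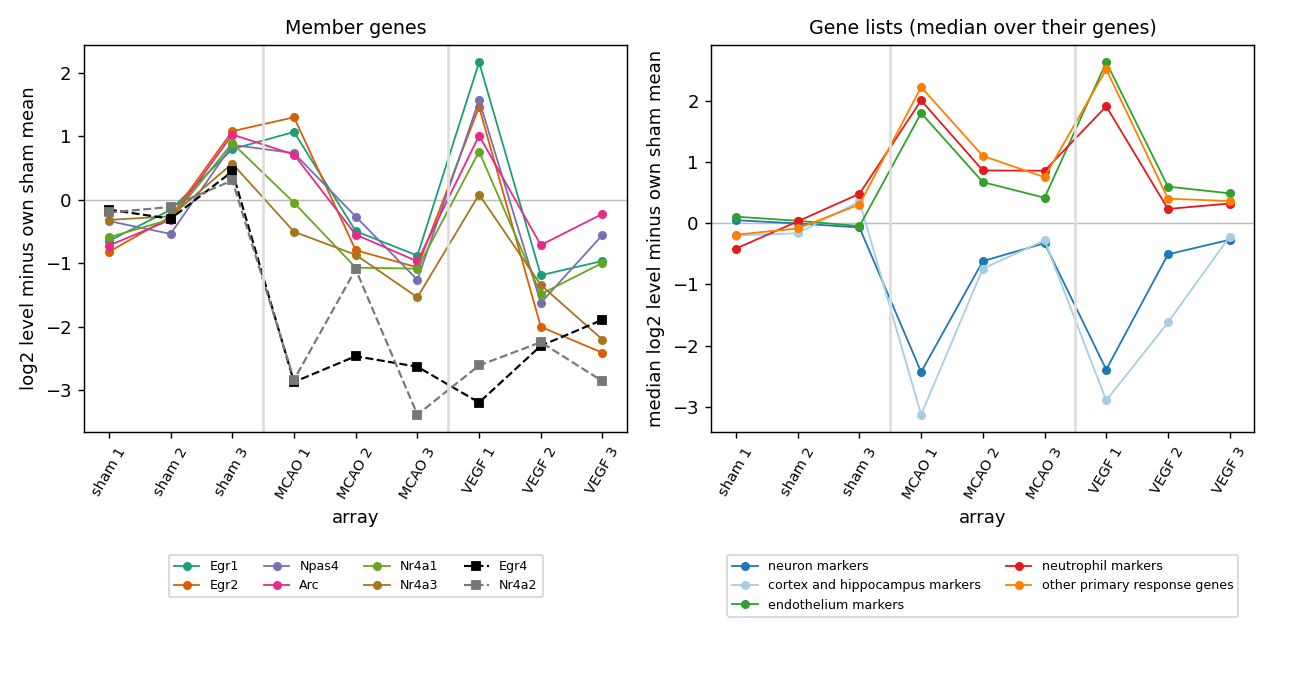
Left, log2 level minus own sham mean (y axis) of 8 genes on each array (x axis); right, the median of the same quantity over the genes of 5 lists. Egr1, Egr2, Npas4, Arc, Nr4a1 and Nr4a3 peak on sham array 3, MCAO array 1 and VEGF array 1 within their groups, Egr4 and Nr4a2 stay low on all ischaemic arrays, and neuron markers are at -2.43 and -2.39 on MCAO array 1 and VEGF array 1.

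Without the pair, all 9 genes had a difference below 0 in both comparisons with sham. The median over all genes was then -0.096 in MCAO and -0.103 in VEGF. For the 6 genes higher on the pair than on all 4 other ischaemic arrays, leaving it out lowers the difference by construction. Those 4 arrays are split evenly between MCAO and VEGF, so each of these groups rests on fewer mice than sham. In MCAO Egr3, Egr4 and Nr4a2 passed, beside 12.4% of all genes lower and 9.61% higher. In VEGF Egr2, Egr4, Nr4a2 and Nr4a3 passed, beside 10.6% lower and 8.44% higher. The share called over all genes was thus far larger than with all arrays, and the members' counts are to be read against it.

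**Figure D4:**
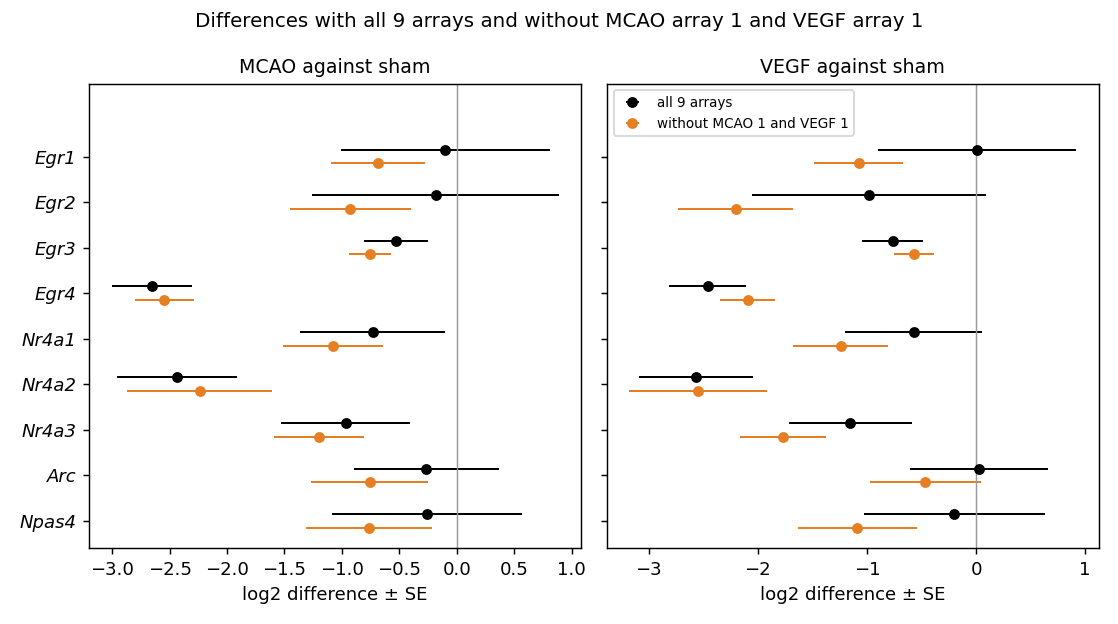
Log2 difference from sham ± SE (x axis) of each of the 9 genes with all 9 arrays (black) and without MCAO array 1 and VEGF array 1 (orange). Egr1, Egr2, Nr4a1, Nr4a3, Arc and Npas4 have lower values without the pair in both comparisons, from 0.01 to -1.07 for Egr1 and from 0.03 to -0.47 for Arc in VEGF, and Egr4 changes by under 0.4.

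The 20 other primary response genes, which respond to stress and growth factors as well as to activity, had differences above 0 for 20 of 20 in both comparisons, with medians of 1.19 in MCAO and 1.05 in VEGF. The same 4 passed in each, all higher. Atf3, a stress-induced factor, was 6.98 ± 0.73 higher in MCAO (adjusted p = 0.00261), and Maff, a small Maf factor, was 5.65 ± 0.65 higher (adjusted p = 0.00444). Fosl1, an AP-1 subunit, was 4.71 ± 0.82 higher (adjusted p = 0.0226) and Zfp36, which destabilises RNA, was 3.95 ± 0.62 higher (adjusted p = 0.0156). In VEGF the values were 6.22, 5.52, 4.41 and 3.90. Of those that did not pass, the growth arrest gene Gadd45b was at 3.06 ± 0.71 in MCAO (adjusted p = 0.0618) and 2.42 ± 0.71 in VEGF (adjusted p = 0.112). Csrnp1, a nuclear protein, was at 2.31 ± 0.71 (adjusted p = 0.128) and 2.15 ± 0.71 (adjusted p = 0.14), and Ier2 at 1.61 ± 0.74 in VEGF (adjusted p = 0.228). Fos, the gene most often measured beside Egr1, was at 1.86 ± 1.01 in MCAO (adjusted p = 0.312); relative to sham it read 2.81, 1.77 and 1.01 in MCAO and 0.12 and 0.21 on VEGF arrays 2 and 3, with VEGF array 1 the highest of all. Fos was thus highest on array 1 of both ischaemic groups, as was Egr1. Without MCAO array 1 and VEGF array 1 the list had medians of 0.74 in MCAO and 0.35 in VEGF. In MCAO 16 of 20 were then above 0 and 8 passed, all higher, namely Fosl1, Atf3, Maff, Zfp36, Gadd45b, Csrnp1, Jun and Klf4. In VEGF 14 were above 0 and the first 6 of these passed, while Fosb, Junb, Jund, Btg2, Dusp6 and Sik1 were below 0.

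Of 18 activity-regulated effector genes, 0 passed in MCAO and 1 in VEGF. An unadjusted p under 0.05 was held by 6 of 18 in MCAO, beside 21.4% of all genes, and by 4 of 18 in VEGF, beside 23.5%. The gene that passed was Ptgs2, the inducible prostaglandin synthase, at 2.19 ± 0.43 (adjusted p = 0.0371), with 1.66 ± 0.43 in MCAO (adjusted p = 0.0813). Nfil3, a bZIP repressor, was at 1.66 ± 0.49 in MCAO (adjusted p = 0.114) and Nrn1, which promotes neurite growth, at -1.44 ± 0.85 (adjusted p = 0.35). Inhba, an activin subunit, was at 1.54 ± 0.38 in VEGF (adjusted p = 0.0828). Without the pair, Inhba, Ptgs2, Nfil3 and Rcan1 were higher and Pcsk1 and Gpr3 lower in MCAO, and Inhba, Ptgs2 and Nfil3 were higher and Gpr3 lower in VEGF.

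Of 18 genes that carry the signal from synapse to nucleus, 0 passed in either comparison, with 6 and 4 at an unadjusted p under 0.05, and 16 were below 0 in each. The NMDA receptor subunit Grin2b was at -2.11 ± 0.83 in MCAO (adjusted p = 0.2), and the kinases Camk2a and Camk4 at -1.90 ± 0.80 and -1.84 ± 0.97. Without the pair, Grin2b was lower in both comparisons, and the list's medians were -0.48 and -0.45. Of 9 partners of the proteins 0 passed, with 4 and 3 at an unadjusted p under 0.05; Dlg4 (PSD-95), a postsynaptic scaffold, was at -1.78 ± 0.43 in MCAO (adjusted p = 0.0723). Without the pair, Arnt and Dnm2 were higher and Rxra and Dlg4 lower in MCAO, and Dnm2 was higher in VEGF.

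Neuron markers gave 0 of 15 passing, with 3 and 1 at an unadjusted p under 0.05, and 15 of 15 below 0, with medians of -1.08 and -1.01. Without the pair, 5 of 15 were lower in MCAO (Tubb3, Syp, Nefl, Map2 and Stmn2) and 3 in VEGF (Tubb3, Syp and Map2), with medians of -0.48 and -0.37. Cortex and hippocampus markers gave 2 of 8 lower in MCAO, Fibcd1 and Rasgrf2, and 0 in VEGF, where 4 had an unadjusted p under 0.05; without the pair Rasgrf2 was also lower in VEGF. Striatum markers gave 0 of 8 in each, with 4 and 2 at an unadjusted p under 0.05, oligodendrocyte markers 0 of 6, with 1 and 0, and the 2 measured of 4 cerebellum markers 0, with 0 and 0. Without the pair Cbln1, a cerebellum marker, was lower in MCAO, and the striatum and oligodendrocyte lists again gave 0.

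Of 9 endothelium markers, Slco1a4 passed in each comparison and was lower, while 6 of 9 were above 0, with medians of 0.96 in MCAO and 1.24 in VEGF. In each comparison 5 had an unadjusted p under 0.05. Esam, Cdh5 and Ly6c1 did not pass, at 2.45 ± 0.67 (adjusted p = 0.0927), 2.29 ± 0.71 (adjusted p = 0.129) and 1.99 ± 0.59 (adjusted p = 0.113) in MCAO. Without the pair, these 3 and Emcn were higher in both comparisons, and Slco1a4 in MCAO and Slco1a4 and Abcb1a in VEGF were lower.

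Of 8 neutrophil markers Cxcr2, S100a8 and S100a9 were higher in each comparison, and the others did not pass. In MCAO 5 of the 8 were above 0 and 3 below, and in VEGF 7 were above and 1 below. An unadjusted p under 0.05 was held by 4 in MCAO and 3 in VEGF. Of 8 microglia and macrophage markers, Cd14 and Ptprc were higher and P2ry12 lower in each, and of 7 astrocyte markers Gfap was higher in VEGF, with 0 passing and 1 at an unadjusted p under 0.05 in MCAO. Without the pair, 4 neutrophil markers were higher in MCAO and 3 in VEGF. Of the microglia and macrophage markers 3 were then higher in each, with 2 lower in MCAO and 1 in VEGF, and of the astrocyte markers Gfap was higher and Gja1 lower in each.

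Likeness to each gene was measured as the root mean square difference over the 9 arrays of log2 levels, each relative to the gene's own sham mean. The genes most like Egr4 were Slc19a3, a thiamine transporter (0.42), P2ry12, a purine receptor of resting microglia (0.44), and Myoc (0.50). P2ry12 itself fell by 2.67 in MCAO and 2.31 in VEGF. Nr4a2 was most like Upk1b (0.48), Akr1c14 (0.61) and P2ry12 (0.63). Egr1 and Npas4 were each other's nearest gene (0.38), and Arc was the third nearest to Npas4 (0.43). Egr1 was the second nearest to Egr2 (0.63).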

How the data were processed

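Brain RNA was hybridised to 9 1-colour Agilent arrays; per the labels, 200 ng was labelled with Cy3. The deposited scanner files hold the processed intensity per spot made by Feature Extraction 10.7.1.1 through background subtraction and division by a spatial detrending factor, per the file headers. That factor is deposited as a ratio. On MCAO array 1 the processed intensity closely matched the background-subtracted signal at most spots, so the factor is read as not applied there. The series table the authors deposited is read as log2 values because its columns correlated at 0.998 to 1.00 with log2 processed intensity; its normalization is not given in the sources used here.

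Spots of a probe were averaged on the log2 scale, leaving out outlier spots, and each array's 75th percentile was subtracted. A probe was kept where every array of some group read it well above background, and the brightest stood for a gene. Symbols came from RefSeq accessions (GRCm38.p6). The 3 groups were compared with limma 3.58.1 (R 4.3.3, statmod 1.5.0) in 1 fit without covariates, at an adjusted p of 0.05. The fit was also run on simulated data with independent errors for each gene and array. Those data lack the deviations that genes of 1 array share here, so the run does not bear on them. The number of arrays limits the precision.

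The members and gene lists were chosen with earlier results of these data known. Genes named are all members with every probe, list genes that passed, the 3 of largest difference in a list that did not (for the other primary response, effector, signalling and endothelium lists; fewer for the others), and the 3 genes most like a member. Other list genes are named because they passed without MCAO array 1 and VEGF array 1, or were then below 0 among the other primary response genes, and were chosen after their values were seen. Same-numbered MCAO and VEGF arrays deviated together (correlations of 0.59, 0.22 and 0.56 across genes). However, MCAO array 2 correlated with VEGF array 3 at 0.39 and MCAO array 3 with VEGF array 2 at 0.23. Same-numbered sham and ischaemic arrays gave -0.11 to 0.15. Deviations within a group sum to 0, so these correlations depend on each other and cannot settle a pairing by number. The main fit used no pairing, and the replicate block was run as an alternative. Alternatives covered background correction, normalization, filtering, probe choice, covariates, array weights, a replicate block and leaving out arrays. Detrending of MCAO array 1 and gene-by-gene array weights were added after seeing the data, the latter because the planned default estimate stopped before converging. For 1 list, part of the result without MCAO array 1 and VEGF array 1 is not reported here.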

Additional observations from a re-analysis of the deposited data

How the results depend on the processing

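Each comparison was repeated under 22 alternatives, 20 planned and 2 added after seeing the data. Causes of the changes below were not tested. Egr4 kept its direction against sham under all of them, as did Nr4a2, Egr3, Nr4a1 and Nr4a3. Size was not kept in Egr3, Nr4a1 and Nr4a3. The values nearest to 0 in MCAO and VEGF were -0.14 and -0.016 in Egr3. They were -0.28 and -0.11 in Nr4a1 and -0.36 and -0.18 in Nr4a3. The replicate block changed no call among the 9 genes: 2, 2 and 0 were called in MCAO against sham, VEGF against sham and VEGF against MCAO, with 1229, 946 and 2 over all genes. With 3 arrays a group, differences of dim or variable genes are limited by the number of arrays.

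In MCAO against sham, where 868 genes were called, the count was 558 with normexp background correction, 1778 with only the 2 groups compared, 1594 with age as a covariate, 6912 without MCAO array 1 and VEGF array 1, and 191 to 2534 when 1 array was left out. In VEGF against sham, where 748 were called, it was 440, 1125, 956, 5969 and 157 to 3196 in the same order. In VEGF against MCAO, where 2 were called, it was 0 with normexp or with the signal recomputed per spot, 4 with quantile normalization, 1 with only both groups compared, 10 without the pair and 1 to 5 when 1 array was left out. The share of calls that were higher moved from 81.0% to 43.6% in MCAO and from 85.3% to 44.3% in VEGF without the pair.

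Of the 9 genes, 1 was called in MCAO, Egr4, with quantile normalization, the deposited series table, no filter on dim probes, the mean of a gene's probes, only the 2 groups compared or age as a covariate. In VEGF 1 was called, Egr4, without the filter or with age, and 4 without the pair. Counts over all genes against sham are not given here for quantile normalization, the series table, no filter and the mean of probes. The member counts under those settings therefore have no share over all genes beside them. With 1 array left out, 1 to 2 were called in MCAO and 0 to 2 in VEGF.

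Array weights gave the greatest changes in these counts. The planned default estimate stopped before converging and gave MCAO array 2 a weight of 57.6, so its counts are not relied on: 18457, 13189 and 8391 genes, and 6, 8 and 3 of the 9 genes. The gene-by-gene estimate, added after those counts were seen, gave 12978, 8049 and 31 genes, and 5, 6 and 0 of the 9. It weighted MCAO array 1 at 0.11 and VEGF array 1 at 0.13, so it comes near to leaving them out. Detrending MCAO array 1, also added later, gave 869 and 759 genes.

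Signs turned for differences near 0. In MCAO against sham, Egr1 was 0.019 with age; with 1 array left out Egr1 ran from -0.68 to 0.30, Egr2 from -0.93 to 0.36, Arc from -0.76 to 0.25 and Npas4 from -0.76 to 0.24. In VEGF against sham, Egr1 was -0.10 with quantile normalization and with the series table, -0.11 with age, -1.07 without the pair, -1.24 with default and -1.17 with gene-by-gene weights. Arc was -0.059 with normexp, -0.038 with quantile normalization, -0.041 with the series table, -0.022 with age, -0.47 without the pair, and -0.78 and -0.72 with both weightings. With 1 array left out, Egr1 ran from -1.07 to 0.60, Arc from -0.47 to 0.54 and Npas4 from -1.09 to 0.51.

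In VEGF against MCAO, Egr1 was -0.029 with quantile normalization, -0.027 with the series table, -0.13 with age, -0.39 without the pair, and -0.61 and -0.43 with default and gene-by-gene weights. Egr3 was 0.12 with normexp, 0.0091 with quantile normalization, 0.0090 with the series table, 0.18 without the pair, and 0.19 and 0.15 with weights. Nr4a1 was -0.16 without the pair, and -0.33 and -0.22 with weights. Nr4a3 was 0.18 with normexp, 0.038 with quantile normalization and 0.035 with the series table. Arc was -0.087 with default weights. Npas4 was -0.11 with age, -0.33 without the pair, and -1.20 and -0.74 with weights. With 1 array left out, Egr1 ran from -0.97 to 0.70, Egr4 from -0.092 to 0.56, Nr4a1 from -0.51 to 0.62, Nr4a2 from -0.60 to 0.54, Nr4a3 from -0.80 to 0.34, Arc from -0.20 to 0.78 and Npas4 from -0.83 to 0.77.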
